A study of Mus musculus with 6 samples.

Results

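The genes described here are 10 members of the Bcl2 family, which sets the threshold for cell death at the mitochondrion: Bcl2, Bcl2a1a, Bcl2a1b, Bcl2a1d, Bcl2l1, Mcl1, Bax, Bcl2l11, Bbc3 and Pmaip1. They were picked by symbol from the 22800 genes of an RNA sequencing table of cells washed from mouse lungs, and all 10 were present and passed the filter on low values. Mice had received either sulfatide, injected intraperitoneally at 20 µg (3 libraries, replicates 1, 2 and 3), or vehicle alone (3 libraries, replicates 2, 3 and 4). Sulfatide, a sulfated glycolipid, is an antigen for type II natural killer T cells when bound to CD1d, and by its title the study concerns alveolar macrophages in lung ischemia and reperfusion injury. The labels state neither strain, age nor sex, nor whether the mice of either group underwent ischemia and reperfusion, nor whether the libraries came from separate animals. The p-values below therefore measure the spread between these libraries, which may be technical.

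Proteins of the Bcl2 family decide whether the outer mitochondrial membrane stays intact. Survival proteins (Bcl2, Bcl-xL, Mcl-1 and A1) hold the pore formers Bax and Bak in check, and BH3-only proteins such as Bim, Puma and Noxa release or activate the pore formers, after which cytochrome c leaves the mitochondrion and caspases are switched on. Macrophages depend on growth factor signals for survival, and A1, the product of the Bcl2a1 genes, is induced by NF-kappaB during inflammatory activation and by the growth factor GM-CSF.

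Levels are given in FPKM, fragments per kilobase of transcript scaled to sequencing depth, which makes levels of different genes comparable per length. Summed FPKM was 1217970 to 1249690 per sulfatide library and 1126780 to 1168470 per vehicle library, and the depth in reads is unknown. Log2 values correlated across the tested genes at 0.990 to 0.995 within groups and at 0.967 to 0.982 between groups, so each library was closest to its own group. Such values do not show that the libraries of a group were alike in single genes. The number of genes called higher was 263 to 1420 with a library left out. Differences were tested with limma on log2(FPKM + 1) over the 10405 genes with 1 FPKM or more in 3 or more libraries, and a gene was called at a Benjamini-Hochberg adjusted p below 0.05. A log2 fold change is sulfatide minus vehicle on that scale, where the added 1 shrinks differences of weakly expressed genes.

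Of the members, Bcl2a1a, Bcl2a1b and Bcl2a1d, are 3 near-identical copies on chromosome 9 within 485 kb (mm10, GENCODE M21). Bcl2a1d lies at chr9:88723285-88731914 on the minus strand, Bcl2a1a at chr9:88956900-88962419 and Bcl2a1b at chr9:89199209-89207827, both on the plus strand. Their promoters are shown because the 3 genes moved together. The sequences are the stretches before the annotated starts, 5′ to 3′ on the strand of the gene, from RefSeq (GRCm38.p6), at chr9:88956670-88956899 (plus strand), chr9:89199023-89199208 (plus strand) and chr9:88731915-88732100 (minus strand). Capitals mark matches on either strand to GAGGAA, the core bound by the macrophage factor PU.1, and to TGANTCA, a looser pattern than the AP-1 motif.
Bcl2a1a: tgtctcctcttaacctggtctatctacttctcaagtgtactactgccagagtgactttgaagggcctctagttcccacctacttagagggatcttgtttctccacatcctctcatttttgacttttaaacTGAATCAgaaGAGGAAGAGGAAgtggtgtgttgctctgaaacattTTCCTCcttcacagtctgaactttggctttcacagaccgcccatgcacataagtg
Bcl2a1b: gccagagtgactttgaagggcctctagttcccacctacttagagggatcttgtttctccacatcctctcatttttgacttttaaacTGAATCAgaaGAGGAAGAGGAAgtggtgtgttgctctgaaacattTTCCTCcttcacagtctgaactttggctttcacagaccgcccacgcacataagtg
Bcl2a1d: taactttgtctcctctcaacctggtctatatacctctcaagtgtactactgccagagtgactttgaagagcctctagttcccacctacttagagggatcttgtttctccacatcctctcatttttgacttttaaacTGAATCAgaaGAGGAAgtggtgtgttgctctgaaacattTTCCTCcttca

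The promoter stretches were identical at 185 of 186 aligned positions between Bcl2a1a and Bcl2a1b (99.5%), and at 176 of 186 between Bcl2a1a and Bcl2a1d (94.6%), where 6 positions were gaps. Bcl2a1a and Bcl2a1b hold 3 matches to GAGGAA, of which a pair stands in tandem, and Bcl2a1d holds 2. Each holds 1 match to TGANTCA, which overlaps none of the GAGGAA matches. It reads TGAATCA in each, so it is not the AP-1 motif itself. In the 250 bases before the start, GAGGAA occurred on either strand in 23.3% and TGANTCA in 6.75% of the 32851 mouse promoter windows of the same length. The short kappaB pattern, searched on both strands, occurred in 45.8% of all windows, in 9 of the 14 windows of the members and in none of these 3 genes' windows. RefSeq windows were on hand for 9 of the 10 members. A match is a match of letters and is not a measured binding site.

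The 3 Bcl2a1 transcripts were 3.60-fold to 4.68-fold lower in sulfatide libraries, and no library of one group reached the range of the other. They encode A1, a survival protein that binds and restrains BH3-only proteins. Bcl2a1b was at 523, 432 and 363 FPKM in sulfatide replicates 1, 2 and 3, and at 1577, 2016 and 1146 FPKM in vehicle replicates 2, 3 and 4. The lowest vehicle library was above the highest sulfatide library by more than the whole range of the sulfatide libraries. Bcl2a1b was 3.60-fold lower in sulfatide (log2 fold change -1.82 ± 0.20 (SE), adjusted p = 0.000407). Bcl2a1d was at 293, 203 and 180 FPKM in sulfatide libraries, and at 1023, 1436 and 699 FPKM in vehicle libraries. It was 4.68-fold lower (-2.19 ± 0.25, adjusted p = 0.000539), again without overlap. Bcl2a1a, the least abundant of the expressed copies, was at 85.1, 76.2 and 63.1 FPKM in sulfatide libraries and at 334, 437 and 262 FPKM in vehicle libraries. It was 4.60-fold lower (-2.17 ± 0.18, adjusted p = 0.000107). In bulk libraries fewer cells with these transcripts and less transcript per cell cannot be told apart.

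Fragments of the Bcl2a1 copies can be assigned to each other, so their sum was tested as well. The longest protein-coding transcripts were 98.2 to 99.1% identical pairwise, and 28.2% (Bcl2a1a), 14.2% (Bcl2a1b) and 30.3% (Bcl2a1d) of their 150-base stretches, the read length in the labels, occurred unchanged in another copy. The summed level was 901, 710 and 605 FPKM in sulfatide replicates 1, 2 and 3, and 2934, 3888 and 2107 FPKM in vehicle replicates 2, 3 and 4. The sum was 4.03-fold lower in sulfatide (log2 fold change -1.98 ± 0.22, 95% interval -2.47 to -1.50, adjusted p = 0.000391). Of all genes tested, 0.596% were called lower with a log2 fold change at or below that of the sum, and 2.84% with one of -1 or below. The copies stood in the same order in each of the 6 libraries. Bcl2a1b made up 58.1 to 60.7% of the sum in sulfatide libraries and 51.8 to 54.4% in vehicle libraries, Bcl2a1d 28.5 to 32.5% and 33.2 to 36.9%, and Bcl2a1a 9.44 to 10.7% and 11.2 to 12.4%. The shares differed without overlap of the groups, and they rest on how the authors' counting split the fragments. Bcl2a1c, the annotated relative elsewhere on chromosome 9, was listed at 0 in the 6 libraries.

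**Figure D1:**
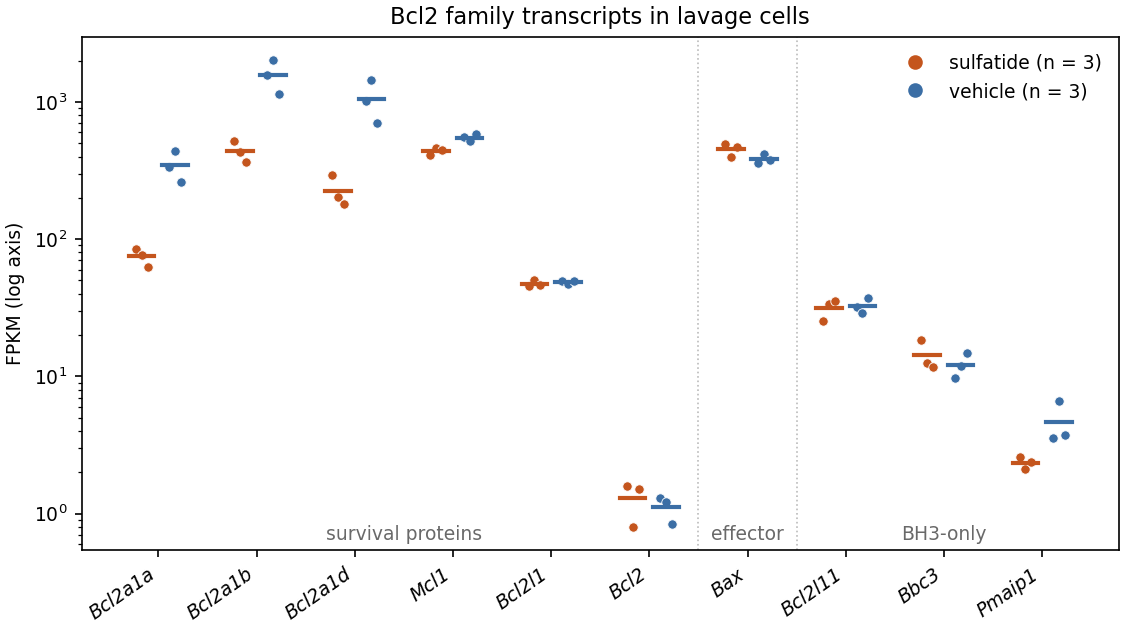
FPKM of the 10 genes on a log axis, with 1 point per library, sulfatide libraries to the left of vehicle libraries and a line at each group mean (n = 3 each). The 3 Bcl2a1 genes are the ones that stand far apart, for example Bcl2a1b at 363 to 523 FPKM in sulfatide and 1146 to 2016 FPKM in vehicle, while Bcl2l1, Bcl2l11, Bbc3, Bax and Bcl2 overlap.

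The other survival genes changed little or not measurably. Mcl1 (chr3:95658788-95663176) encodes a short-lived protein needed for neutrophil survival. It was at 410, 457 and 449 FPKM in sulfatide replicates 1, 2 and 3, and at 555, 516 and 579 FPKM in vehicle replicates 2, 3 and 4. The groups did not overlap, and Mcl1 was 1.25-fold lower in sulfatide (log2 fold change -0.33 ± 0.08, 95% interval -0.51 to -0.14, adjusted p = 0.0280). The adjusted p of Mcl1 ranged between 0.00539 and 0.183 over 15 alternatives. It was 0.110 without sulfatide replicate 1, 0.0790 without sulfatide replicate 3, 0.114 without vehicle replicate 2 and 0.0931 without vehicle replicate 4. The call was thus lost without any of these libraries, while the log2 fold change stayed between -0.37 and -0.28 with a library left out. Bcl2l1 (chr2:152780668-152831728), which encodes Bcl-xL, was at 45.3, 50.5 and 46.1 FPKM in sulfatide libraries and at 49.6, 47.4 and 49.9 FPKM in vehicle libraries. Its groups overlapped, and the 95% interval of the log2 fold change was -0.24 to 0.14 (-0.05 ± 0.09, adjusted p = 0.717). Bcl2 itself (chr1:106538178-106714274) was the lowest of the 10 genes, with an antisense gene annotated across it, at 1.6, 0.80 and 1.51 FPKM in sulfatide libraries and at 1.29, 1.21 and 0.84 FPKM in vehicle libraries (0.11 ± 0.17, 95% interval -0.28 to 0.51, adjusted p = 0.689).

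Bax (chr7:45461697-45466898), the pore former of the list, did not pass. It was at 493, 398 and 473 FPKM in sulfatide replicates 1, 2 and 3, and at 360, 416 and 380 FPKM in vehicle replicates 2, 3 and 4. Sulfatide replicate 2 lay below vehicle replicate 3, and the remaining sulfatide libraries lay above all vehicle libraries. GENCODE annotates the protein-coding gene Gm45808 over Bax on the same strand, so fragments of either may be counted for Bax. The log2 fold change was 0.24 ± 0.10, with a 95% interval of 0.00 to 0.47 (adjusted p = 0.141, range 0.0133 to 0.389 over 15 alternatives). Without sulfatide replicate 2 it was 0.33 (adjusted p = 0.0476). With values rescaled to a common sum per library (TPM) it was 0.12 (adjusted p = 0.371), the lowest of the alternatives.

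Among the BH3-only genes, Pmaip1 fell and the other 2 did not pass. Pmaip1 (chr18:66458533-66465565) encodes Noxa, which binds Mcl-1 and A1, and was at 2.59, 2.10 and 2.38 FPKM in sulfatide replicates 1, 2 and 3, against 3.54, 6.67 and 3.72 FPKM in vehicle replicates 2, 3 and 4. The groups did not overlap, vehicle replicate 3 stood above the other vehicle libraries, and Pmaip1 was 1.97-fold lower in sulfatide (log2 fold change -0.71 ± 0.20, adjusted p = 0.0384). It did not pass without sulfatide replicate 1 (adjusted p = 0.0664), sulfatide replicate 2 (0.0879), sulfatide replicate 3 (0.0898), vehicle replicate 2 (0.0506) or vehicle replicate 4 (0.0517), and its adjusted p ranged between 0.0212 and 0.0898 over 14 alternatives. Bcl2l11 (chr2:128126038-128162547) encodes Bim, the BH3-only protein that rises when growth factors are withdrawn. It was at 25.3, 33.5 and 35.7 FPKM in sulfatide libraries and at 31.8, 28.9 and 37.3 FPKM in vehicle libraries, with overlapping groups (-0.06 ± 0.14, 95% interval -0.39 to 0.27, adjusted p = 0.807). Bbc3 (chr7:16308393-16318205), which encodes the p53-induced protein Puma, was at 18.4, 12.6 and 11.7 FPKM in sulfatide libraries and at 9.70, 11.8 and 14.9 FPKM in vehicle libraries (0.21 ± 0.19, 95% interval -0.23 to 0.64, adjusted p = 0.482).

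**Figure D2:**
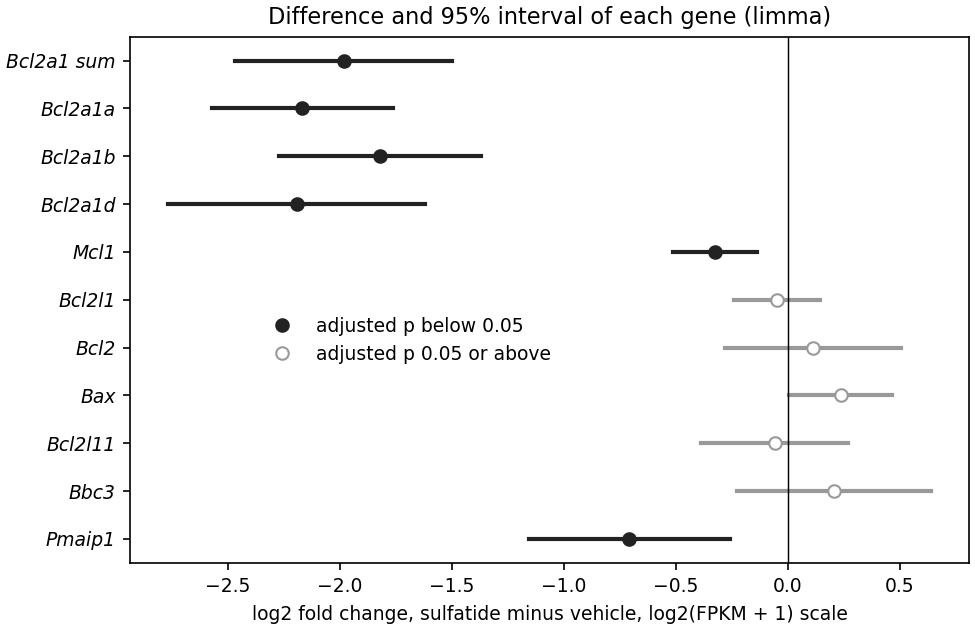
Log2 fold change of each gene and of the summed Bcl2a1 genes with its 95% interval, filled where the adjusted p was below 0.05 (limma, n = 3 each). The Bcl2a1 genes lie between -2.19 and -1.82, Mcl1 at -0.33 and Pmaip1 at -0.71, and the intervals of the open points reach 0 or start just above it.

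In all, 5 of the 10 members were called lower and 0 higher by limma, beside 10.4% of all genes tested called lower and 8.31% called higher. At an unadjusted p below 0.05 the counts were 5 lower and 1 higher, beside 15.8% of all genes tested lower and 18.0% higher at that threshold, so that 1 of 10 higher is no more than the background. The 5 include the 3 copies of Bcl2a1, which share sequence and are not separate observations, and the median log2 fold change was -0.19 over the members and 0.04 over all genes tested. The count of lower members was 3, the Bcl2a1 copies alone, without sulfatide replicate 1, sulfatide replicate 3, vehicle replicate 2 or vehicle replicate 4. The groups did not overlap for the same 5 members, beside 18.3% of all genes tested with sulfatide lower and no overlap.

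The Bcl2a1 genes held different places in the order of levels in the 2 groups. In sulfatide libraries Bax (398 to 493 FPKM), Bcl2a1b (363 to 523 FPKM) and Mcl1 (410 to 457 FPKM) had the highest levels and overlapped each other. Bcl2a1d (180 to 293 FPKM), Bcl2a1a (63.1 to 85.1 FPKM), Bcl2l1 (45.3 to 50.5 FPKM), Bcl2l11 (25.3 to 35.7 FPKM), Bbc3 (11.7 to 18.4 FPKM), Pmaip1 and Bcl2 followed without overlap of neighbours. In vehicle libraries Bcl2a1b and Bcl2a1d came first and overlapped each other. Mcl1 (516 to 579 FPKM) was next, then Bax (360 to 416 FPKM) and Bcl2a1a (262 to 437 FPKM), which overlapped, and the remaining genes kept the order they had in the sulfatide libraries.

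Added up per library, the 6 survival genes reached 1358, 1219 and 1102 FPKM in sulfatide replicates 1, 2 and 3, and 3540, 4453 and 2737 FPKM in vehicle replicates 2, 3 and 4. The Bcl2a1 genes held 66.3, 58.3 and 55.0% of this sum in sulfatide libraries, against 82.9, 87.3 and 77.0% in vehicle libraries. Mcl1 held 30.2 to 40.7% in sulfatide libraries and 11.6 to 21.2% in vehicle libraries. The summed Bcl2a1 level was 1.35 to 2.20 times that of Mcl1 in sulfatide libraries and 3.64 to 7.53 times in vehicle libraries. The level of Bax relative to Mcl1 was 1.20, 0.871 and 1.05 in sulfatide libraries and 0.649, 0.806 and 0.655 in vehicle libraries. Both ratios separated the groups without overlap. Mcl1 relative to Bcl2l11 was 12.6 to 16.2 in sulfatide libraries and 15.5 to 17.9 in vehicle libraries, which overlap. These are ratios of transcripts per length, given as a description with no test, and they say nothing of protein, of which Mcl-1 in particular is turned over fast.

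**Figure D3:**
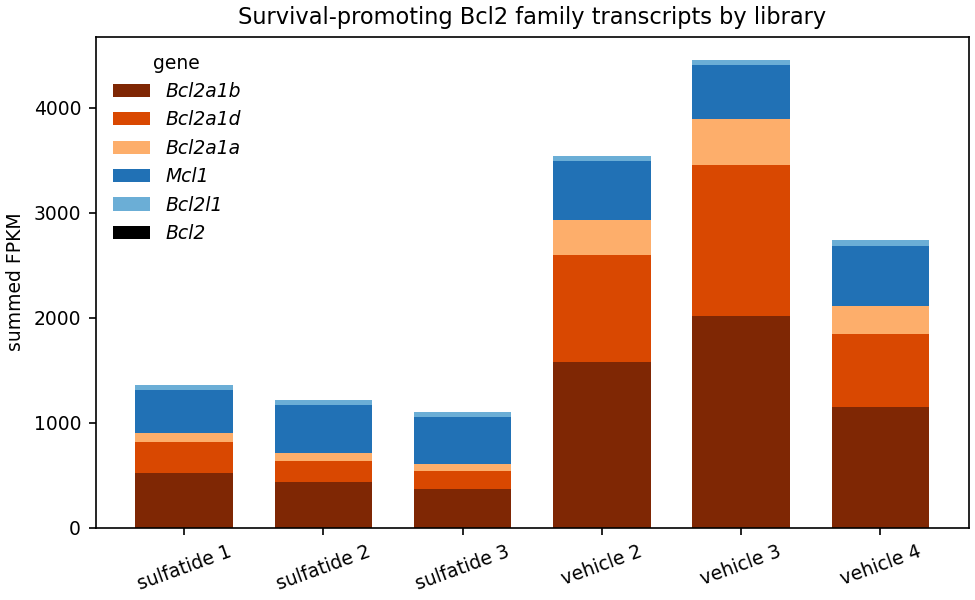
Summed FPKM of the 6 survival genes in each library, stacked by gene, with the sulfatide libraries on the left and the vehicle libraries on the right. The sulfatide bars reach 1102 to 1358 FPKM and the vehicle bars 2737 to 4453 FPKM, and the orange and brown Bcl2a1 parts carry most of that difference.

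Genes beside the Bcl2a1 copies were examined within 200 kb, chosen by position after the values of the members were known. Mthfs, which encodes a folate enzyme and starts near Bcl2a1b, was at 25.4, 21.5 and 19.9 FPKM in sulfatide replicates 1, 2 and 3, and at 37.9, 48.1 and 26.2 FPKM in vehicle replicates 2, 3 and 4. The libraries stood in the same order within each group as for Bcl2a1b, and Mthfs was 1.68-fold lower in sulfatide (log2 fold change -0.69 ± 0.20, adjusted p = 0.0406). Mthfs did not pass without sulfatide replicate 2 (adjusted p = 0.0866), sulfatide replicate 3 (0.118), vehicle replicate 2 (0.139) or vehicle replicate 3 (0.0590). The related gene Mthfsl, next to Bcl2a1d, was at 36.4, 25.4 and 24.4 FPKM in sulfatide libraries and at 37.9, 47.5 and 28.9 FPKM in vehicle libraries, in the same order within each group again but with overlapping groups (-0.39 ± 0.20, adjusted p = 0.197). Zfp949, farther from the copies, was at 3.25 to 3.58 FPKM in sulfatide libraries and 2.66 to 4.10 FPKM in vehicle libraries (0.03 ± 0.14, adjusted p = 0.893). Of the genes in this stretch that did not reach the filter, Gm10634, annotated antisense to Bcl2a1d, did not exceed 0.10 FPKM, and Trim43a, Trim43b, Trim43c and Gm2396 did not exceed 1.27 FPKM. GENCODE also annotates Gm29094, a protein-coding gene on the same strand that overlaps Bcl2a1b and Mthfs. Its fragments, if any, were counted in a way the sources used here do not give, and its part in the values of Bcl2a1b and Mthfs was not tested.

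**Figure D4:**
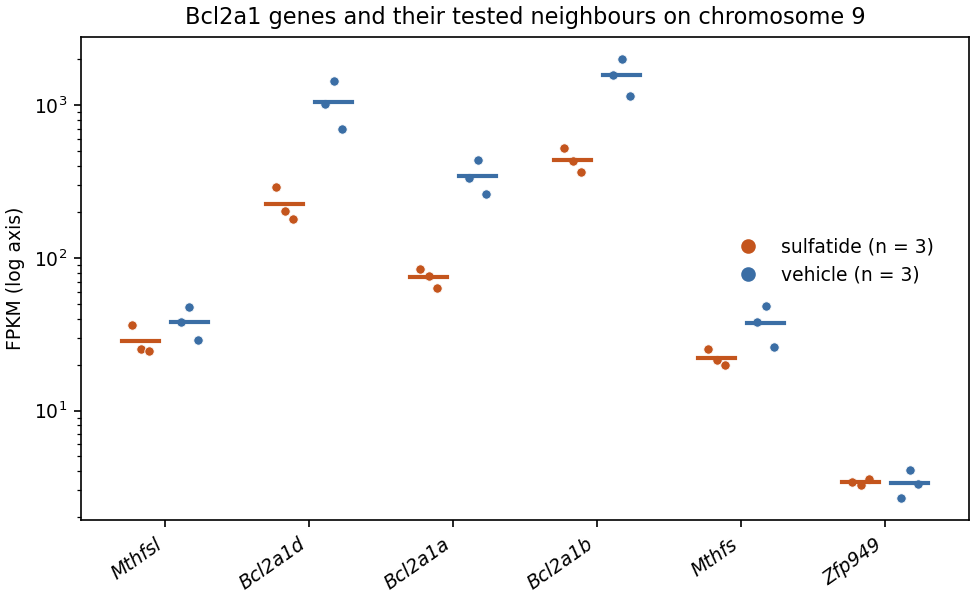
FPKM on a log axis of the Bcl2a1 copies and of the neighbouring genes that reached the filter, in their order along the chromosome except Zfp949, with 1 point per library and a line at each group mean (n = 3 each). The Bcl2a1 copies are 3.60-fold to 4.68-fold lower in sulfatide libraries, Mthfs is 1.68-fold lower, and Mthfsl and Zfp949 overlap between the groups.

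Other genes of the Bcl2 family gave a mixed result. None of the 4 tested further survival relatives and helpers (Bcl2l2, Bcl2l12, Bag1 and Bag3) was called by limma, and 0 had an unadjusted p below 0.05. Bak1, the second pore former, was at 125, 139 and 125 FPKM in sulfatide libraries and at 150, 141 and 172 FPKM in vehicle libraries, without overlap but also without a call (-0.25, adjusted p = 0.106). None of the 3 tested genes of the pore former list was called, and 1 was lower at an unadjusted p below 0.05, beside 15.8% of all genes tested. Of the 6 tested members of the list of other BH3-only genes and distant relatives, 3 rose and 0 fell (4 and 0 at an unadjusted p below 0.05, beside 18.0% of all genes tested higher), with a median log2 fold change of 0.27. Bnip3, an atypical member linked to the removal of mitochondria, was at 465, 469 and 503 FPKM in sulfatide libraries and at 387, 389 and 395 FPKM in vehicle libraries (1.23-fold higher, adjusted p = 0.0261). Its relative Bnip3l was 1.27-fold higher (76.8 ± 4.36 FPKM in sulfatide and 60.5 ± 2.76 FPKM in vehicle, SD, n = 3 each, adjusted p = 0.0253). Bmf, whose product is bound to the cytoskeleton in healthy cells, was at 2.23, 2.20 and 1.41 FPKM in sulfatide libraries and at 0.60, 0.48 and 1.26 FPKM in vehicle libraries (log2 fold change 0.74 ± 0.19, adjusted p = 0.0302). These are small or low calls. Bnip3 did not pass without sulfatide replicate 1 (adjusted p = 0.0622), sulfatide replicate 3 (0.117), vehicle replicate 2 (0.111) or vehicle replicate 4 (0.0641). Bnip3l did not pass without sulfatide replicate 3 (0.108) or vehicle replicate 2 (0.106), nor Bmf without sulfatide replicate 1 (0.0934), sulfatide replicate 2 (0.0760), vehicle replicate 2 (0.120) or vehicle replicate 3 (0.0559). Over the alternatives the adjusted p ranged between 0.00387 and 0.117 for Bnip3, 0.00382 and 0.108 for Bnip3l, and 0.0127 and 0.120 for Bmf. Rescaling to TPM also took the calls of Bnip3 (0.102) and Bnip3l (0.0919).

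Downstream of the mitochondrion, 2 of 13 tested apoptosome and caspase genes rose and 2 fell, beside 8.31% of all genes tested higher and 10.4% lower. Their median was 0.04. Casp6, a caspase gene, was at 73.7, 64.8 and 73.9 FPKM in sulfatide libraries and at 34.6, 42.9 and 43.1 FPKM in vehicle libraries (1.76-fold higher, adjusted p = 0.00130). Cycs, which encodes cytochrome c, was at 319 ± 13.3 FPKM in sulfatide and 424 ± 48.1 FPKM in vehicle (1.33-fold lower, adjusted p = 0.0222). The nuclease gene Endog was at 18.8 ± 2.19 FPKM in sulfatide and 13.2 ± 1.29 FPKM in vehicle (1.42-fold higher, adjusted p = 0.0261). Cycs did not pass without sulfatide replicate 2 (0.0512), sulfatide replicate 3 (0.0832) or vehicle replicate 2 (0.106), nor Endog without sulfatide replicate 1 (0.0959), sulfatide replicate 2 (0.0563), vehicle replicate 2 (0.114) or vehicle replicate 4 (0.0722). Their adjusted p ranged between 0.00307 and 0.106 (Cycs) and between 0.00973 and 0.206 (Endog) over the alternatives.

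Of 7 tested genes of the inhibitor of apoptosis family, 2 fell and 0 rose (3 and 0 at an unadjusted p below 0.05, beside 15.8% of all genes tested lower), with a median of -0.23. Birc3, an NF-kappaB target, was at 94.8 ± 3.24 FPKM in sulfatide and 118 ± 3.18 FPKM in vehicle (1.24-fold lower, adjusted p = 0.0240). Naip6, one of several near-identical Naip copies between which fragments may be split, was at 1.18 ± 0.185 FPKM in sulfatide and 1.96 ± 0.199 FPKM in vehicle (adjusted p = 0.0440). Birc3 did not pass without sulfatide replicate 1 (0.0934), sulfatide replicate 3 (0.0911) or vehicle replicate 2 (0.0999), and its adjusted p ranged between 0.00452 and 0.125. Naip6 did not pass without any of 5 libraries in turn, sulfatide replicates 1 (0.138), 2 (0.0858) and 3 (0.0613) and vehicle replicates 2 (0.156) and 4 (0.118), within a range of 0.0196 to 0.290.

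The death receptor and necroptosis list had 6 of 12 tested members lower and 1 higher, with a median of -0.25. The 6 include Tnfsf10, whose p is given only as a description (below). Of all genes tested, 10.4% were called lower and 8.31% higher. Mlkl, the pore former of necroptosis, was at 31.4, 33.7 and 37.1 FPKM in sulfatide libraries and at 125, 89.2 and 110.7 FPKM in vehicle libraries (3.18-fold lower, adjusted p = 8.73e-05). Zbp1, a nucleic acid sensor upstream of necroptosis and an interferon-induced gene, was at 78.7, 72.0 and 93.5 FPKM in sulfatide libraries and at 277, 183 and 274 FPKM in vehicle libraries (3.01-fold lower, adjusted p = 0.000360). Ripk3, the kinase that activates Mlkl, went the other way, at 55.0, 45.5 and 52.4 FPKM in sulfatide libraries and at 23.8, 27.2 and 27.1 FPKM in vehicle libraries (1.96-fold higher, adjusted p = 0.000428). Cflar, which encodes the caspase-8 inhibitor cFLIP, was at 25.0, 28.3 and 30.1 FPKM in sulfatide libraries and at 58.4, 54.3 and 57.0 FPKM in vehicle libraries (2.03-fold lower, adjusted p = 0.000201). The death ligand Tnfsf10 (TRAIL) was at 0.25, 0.37 and 0.74 FPKM in sulfatide libraries and at 5.85, 3.48 and 5.12 FPKM in vehicle libraries (log2 fold change -1.99 ± 0.19, adjusted p = 0.000204). Tnfsf10 reached the filter only through its vehicle libraries, so its p is given as a description. The receptor gene Fas (87.8 ± 6.18 FPKM in sulfatide and 131 ± 9.77 FPKM in vehicle, adjusted p = 0.00305) and Casp8 (62.2 ± 2.35 FPKM in sulfatide and 86.0 ± 11.3 FPKM in vehicle, adjusted p = 0.0208) were the remaining genes that fell. Ripk3, Fas and Casp8 were picked with their values in view, outside the rule for named genes. Casp8 did not pass without sulfatide replicate 1 (0.0672), sulfatide replicate 3 (0.0637), vehicle replicate 2 (0.0968) or vehicle replicate 4 (0.0715), and its adjusted p reached 0.115 over the alternatives. The other genes of this list named here passed in all alternatives in which they were tested. For Tnfsf10 these were 11 of 15. It was not tested with a vehicle library left out or at a minimum of 5 FPKM, so its call was not checked there.

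Genes around p53, which induces Bbc3, Pmaip1 and Bax, moved in both directions. Of 13 tested members of the p53 list 4 rose and 3 fell, beside 8.31% of all genes tested higher and 10.4% lower. The 4 include Trp53inp1, whose p is given only as a description (below). The median of the list was -0.06. The cell cycle inhibitor Cdkn1a was at 284, 247 and 223 FPKM in sulfatide libraries and at 446, 402 and 412 FPKM in vehicle libraries (1.67-fold lower, adjusted p = 0.00125). Mdm2, which targets p53 for degradation, was 1.45-fold lower (adjusted p = 0.00353), and Gadd45a, a stress gene, 2.06-fold lower (71.2 ± 5.64 FPKM in sulfatide and 147 ± 24.2 FPKM in vehicle, adjusted p = 0.000705). Phlda3, an inhibitor of Akt, was at 36.8, 22.4 and 25.8 FPKM in sulfatide libraries and at 8.56, 14.0 and 16.6 FPKM in vehicle libraries (2.17-fold higher, adjusted p = 0.0155). The other genes that rose, named after their values were seen, were Ccng1 (1.26-fold, adjusted p = 0.0279), Zmat3 (1.40-fold, adjusted p = 0.0329) and Trp53inp1, at 1.29, 1.85 and 1.37 FPKM in sulfatide libraries and 0.74, 0.60 and 0.42 FPKM in vehicle libraries (adjusted p = 0.0159). Ccng1 did not pass without sulfatide replicate 1 (0.110), sulfatide replicate 3 (0.0690), vehicle replicate 2 (0.117) or vehicle replicate 4 (0.0735), nor after rescaling to TPM (0.0895). Zmat3 passed when sulfatide replicate 1 was left out and not when any other library was (0.0508 to 0.0960), and Trp53inp1 did not pass without vehicle replicate 4 (0.0550). Trp53inp1 reached the filter only through its sulfatide libraries, so its p is given as a description. With a sulfatide library left out, or at a minimum of 5 FPKM, Trp53inp1 did not reach the filter and was not tested. Over the alternatives the adjusted p ranged between 0.00786 and 0.192 for Ccng1, 0.0109 and 0.108 for Zmat3, and 0.00906 and 0.0813 for Trp53inp1. Trp53 itself was at 42.3 to 53.1 FPKM in sulfatide libraries and 46.7 to 54.0 FPKM in vehicle libraries (adjusted p = 0.750).

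Of 19 tested genes listed for macrophage survival signalling, 5 fell and 0 rose (8 and 0 at an unadjusted p below 0.05, beside 15.8% of all genes tested lower), with a median of -0.24. The list holds growth factors, receptors and kinases, and also the transcription factor genes Foxo1 and Foxo3, neither of which was called. The growth factor Csf1 was at 2.91, 2.07 and 3.30 FPKM in sulfatide libraries and at 7.00, 8.31 and 6.82 FPKM in vehicle libraries (2.67-fold lower, adjusted p = 0.000919). Csf2, which encodes GM-CSF and did not reach the filter, was listed at 0 in the 3 sulfatide libraries and at 0.82, 4.31 and 0.32 FPKM in the vehicle libraries. Its highest value was in vehicle replicate 3, which also held the highest levels of Bcl2a1, Pmaip1, Mthfs and Mthfsl. Whether the levels of Csf2 and Bcl2a1 are linked was not tested. Csf2ra, a chain of the GM-CSF receptor, was 1.54-fold lower (94.4 ± 10.1 FPKM in sulfatide and 145 ± 22.3 FPKM in vehicle, adjusted p = 0.0105), while Csf1r was at 573 to 706 FPKM in sulfatide libraries and 674 to 915 FPKM in vehicle libraries, with overlap (adjusted p = 0.226). The survival kinase gene Pim1 was at 84.3, 82.6 and 82.7 FPKM in sulfatide libraries and at 184, 185 and 172 FPKM in vehicle libraries (2.17-fold lower, adjusted p = 5.03e-05). Map2k1, which encodes the kinase MEK1, was 1.33-fold lower (adjusted p = 0.0160, range up to 0.0860). Map2k1 did not pass without sulfatide replicate 1 (0.0550), sulfatide replicate 3 (0.0637), vehicle replicate 2 (0.0803) or vehicle replicate 4 (0.0572). Csf2, Csf1r and Map2k1 were named after their values were seen. Of 5 tested genes that control the breakdown of the Mcl-1 protein, such as the ubiquitin ligase Huwe1, none was called by limma, 0 had an unadjusted p below 0.05 and the median was -0.04.

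**Figure D5:**
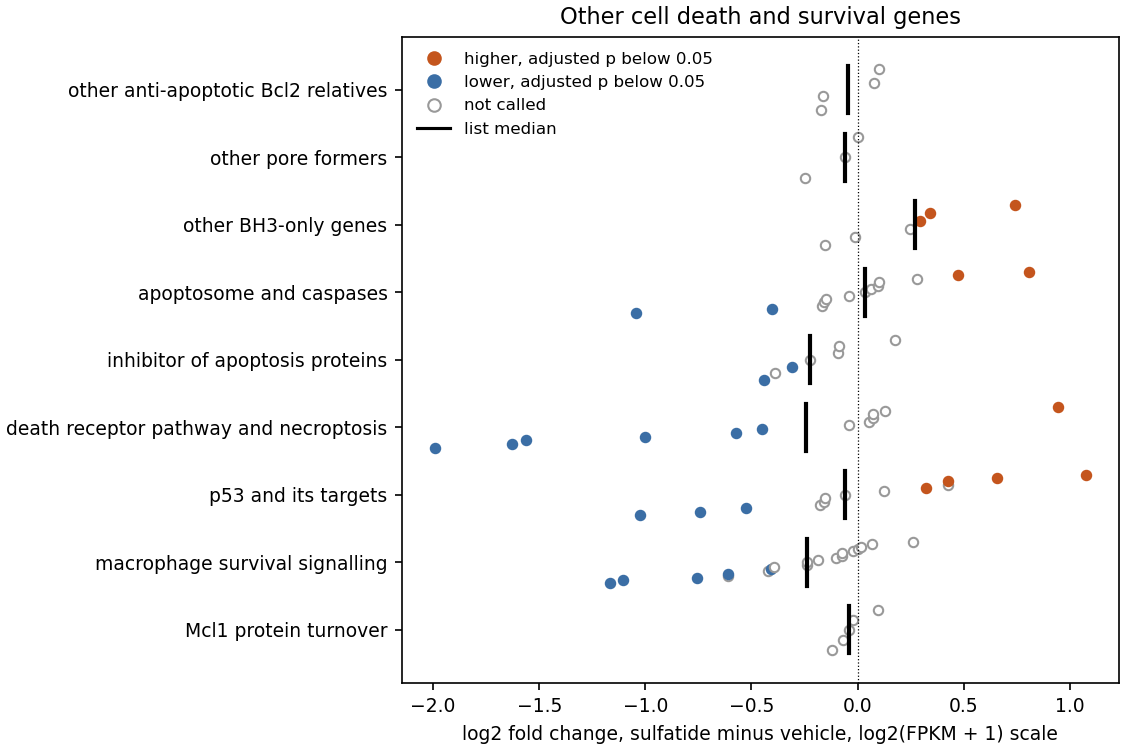
Log2 fold change of each tested gene of 9 lists of cell death and survival genes, coloured where the adjusted p was below 0.05 (limma, n = 3 each), with a bar at the median of each list. The medians lie between -0.25 and 0.27, and the points farthest to the left belong to the death receptor and necroptosis list, down to -1.99 for Tnfsf10. Tnfsf10 reached the filter only through its vehicle libraries.

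The genes whose levels followed the summed Bcl2a1 genes most closely over the 6 libraries were Nfkbib, which encodes an inhibitor of NF-kappaB (Pearson r = 0.996 of log2 values), Nfkbil1 (0.996) and Ano10 (0.996). Those closest to Mcl1 were Ctnna1 (0.997), Myo10 (0.997) and Arhgap10 (0.997), and those closest to Bcl2l11 were Cyb5b (0.979), Cd74 (0.976) and Psap (0.957). They were the best of 7962 genes with a mean of at least 5 FPKM. For Bcl2a1 and Mcl1 the 6 points fall into separate groups, so that r mainly reflects the difference between groups, and it is given as a description.

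Markers of macrophages were abundant in both groups, at 27026 to 38326 FPKM summed over the list of 10 in sulfatide libraries and 29657 to 34302 in vehicle libraries. Lyz2 made up 92.7 to 93.6% and 90.9 to 92.8% of these sums, and without it they were 1976 to 2436 FPKM in sulfatide libraries and 2190 to 2796 FPKM in vehicle libraries. Of 9 tested genes Mrc1 rose (25.5 to 33.6 FPKM in sulfatide libraries and 7.68 to 13.6 FPKM in vehicle libraries, adjusted p = 0.00143) and Itgax fell (2.05 to 2.43 and 3.57 to 5.78 FPKM, adjusted p = 0.0159). At an unadjusted p below 0.05, 1 was higher and 3 were lower (Itgax, Adgre1 and Fcgr1), beside 18.0% of all genes tested higher and 15.8% lower. Cd68 was at 609 to 701 FPKM in sulfatide libraries and 612 to 660 FPKM in vehicle libraries, and Siglecf, which defines resident alveolar macrophages, was at 0.67 to 0.90 FPKM in sulfatide libraries and 0.08 to 0.26 FPKM in vehicle libraries, too low to be tested. Neutrophils also express Bcl2a1 and depend on Mcl1. The neutrophil list summed to 461 to 635 FPKM in sulfatide libraries and to 175 to 241 FPKM in vehicle libraries. Of 6 tested genes 2 were higher, S100a8 and Mmp8, and 0 lower (3 and 1 at an unadjusted p below 0.05), beside 8.31% of all genes tested called higher and 10.4% lower. S100a8 made up 74.1 to 78.3% of the sum in sulfatide libraries and 47.2 to 52.5% in vehicle libraries. Without S100a8 the sums overlapped, at 100.04 to 164 FPKM in sulfatide libraries and 83.0 to 127 FPKM in vehicle libraries, and S100a9 was at 11.0 to 35.2 and 17.2 to 30.7 FPKM. Of genes that define neutrophils, Ly6g was at most 0.18 FPKM and Cxcr2 at most 0.12 FPKM. Other genes of the list were expressed. Csf3r was at 55.9 to 68.9 FPKM in sulfatide libraries and 40.6 to 57.2 FPKM in vehicle libraries, and Mmp8 at 28.5 to 51.8 and 16.7 to 29.8 FPKM, both with overlap. Camp went the other way, at 3.22 to 3.91 FPKM in sulfatide libraries and 4.17 to 5.62 FPKM in vehicle libraries. The T, natural killer T and natural killer cell list summed to 3.16 to 3.78 and 2.40 to 3.48 FPKM, with Cd3e at 0 in each library. Sums were 6.59 to 6.71 and 5.13 to 6.23 FPKM for B cells, 7.19 to 8.88 and 6.70 to 8.74 FPKM for dendritic cells, 0.60 to 5.85 and 1.44 to 4.66 FPKM for eosinophils, basophils and mast cells, 1.59 to 2.95 and 1.43 to 3.11 FPKM for lung epithelium, and 50.6 to 66.0 and 57.0 to 73.2 FPKM for endothelium and stroma, each given for sulfatide and then vehicle libraries. Within these lists Cd209a rose (1.19 to 2.59 FPKM in sulfatide libraries, listed at 0 in vehicle libraries, adjusted p = 0.000685), and Ccr7 (0.41 to 0.81 and 1.63 to 2.31 FPKM, adjusted p = 0.00348) and Pdgfrb (1.62 to 2.03 and 5.89 to 6.93 FPKM, adjusted p = 0.000137) fell. Cd209a reached the filter only through its sulfatide libraries and Ccr7 only through its vehicle libraries, so their p are given as a description. The part of cell makeup in the values of the members was not tested.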

How the data were processed

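Poly(A)-selected, strand-specific paired-end libraries were made from cells of bronchoalveolar lavage fluid, per the labels' protocols, and the submitters' processing notes name the build mm10. Aligner, counter, annotation and strand setting: not given in the sources used here. The authors deposited FPKM rounded to 2 decimals for 22800 genes, without counts, so that counting error cannot be computed. A further 3 value columns of the table matched no sample and were left out.

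Groups and replicate numbers came from the sample titles. Values were tested as log2(FPKM + 1) for the 10405 genes with at least 1 FPKM in at least 3 libraries, with limma 3.58.1 in R 4.3.3 (lmFit, eBayes with an intensity trend, 2-sided, Benjamini-Hochberg adjustment over all genes tested, called below 0.05). The fit was tested on simulated data. With 3 libraries in each group, exact permutation gives a smallest 2-sided p of 0.1, and it was not used. Folds are ratios of group mean FPKM.

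The members and the lists were chosen with earlier results of these data known, so no p is adjusted over a list alone. Named genes are the members, up to 4 called genes with the smallest p of each list, the first genes of the cell type lists and the 3 genes most like each of 3 members. Names outside this rule (Ripk3, Fas, Casp8, Ccng1, Zmat3, Trp53inp1, Trp53, Csf2, Csf1r, Map2k1, Foxo1, Foxo3, Huwe1, Bak1, Bcl2l2, Bcl2l12, Bag1, Bag3, S100a8, Mmp8, Csf3r, Camp, Mrc1, Itgax, Fcgr1, Cd209a, Ccr7, Pdgfrb, Siglecf and the neighbours of Bcl2a1) were chosen after their values were seen. Some genes that the rule names are not reported here. Alternatives were smaller pseudocounts (0.1, 0.5), testing every gene above 0, a minimum of 5 FPKM, TPM, quantile normalization, array weights, no intensity trend, a replicate block and each library left out in turn. Gene positions are from GENCODE M21 and promoters from RefSeq. Identities were computed with Biopython 1.88.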

Additional observations from a re-analysis of the deposited data

How the results depend on the processing

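The calls of Bcl2a1a, Bcl2a1b, Bcl2a1d and their sum held in all 15 alternatives, with log2 fold changes of the sum between -2.36 and -1.77 and a highest adjusted p of 0.00406. Bcl2, Bcl2l1, Bcl2l11 and Bbc3 were called in none. Mcl1 was called in 9 of 15 alternatives. It did not pass without the intensity trend (-0.33, adjusted p = 0.0527) or under the replicate block (-0.24, 0.183), and lay between -0.37 and -0.28 when each library was left out in turn. Pmaip1 was called in 8 of 14, did not pass with no filter on low values (-0.71, 0.0896) and lay between -0.84 and -0.47 with a library left out. Bax was called higher with array weights (0.32, 0.0133), which makes 1 member higher there, and lay between 0.17 and 0.33 with a library left out. It was lowest after rescaling to TPM (0.12, 0.371). Members called lower numbered 3 to 5 and members called higher 0 to 1 with a library left out. For Mcl1, Pmaip1 and Bax the cause was not tested.

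Over all genes tested, 865 were called higher and 1078 lower. The number higher was 522 with no filter, 468 after rescaling to TPM, 2054 with array weights and 297 with the block, and 263 to 1420 with a library left out (345 and 439 without sulfatide replicates 1 and 3, 263, 1420 and 422 without vehicle replicates 2, 3 and 4). The number lower was 1723 with array weights, 635 with the block and 603 to 1136 with a library left out (683 without sulfatide replicate 3, 603 without vehicle replicate 2). The higher calls made up 44.5% of all calls, and 23.6% with values rescaled to TPM. The replicate numbers 2 and 3 occur in both groups, but deviations from the group means correlated at 0.16 (number 2) and -0.30 (number 3), so the numbers were not taken as pairs. Libraries of different numbers correlated at up to 0.54 (sulfatide replicate 1 with vehicle replicate 3) and down to -0.40 (sulfatide replicate 1 with vehicle replicate 4). What these libraries share was not tested. Among the members the block took only the call of Mcl1. It also took those of Bnip3, Bnip3l, Endog, Birc3, Naip6, Casp8, Ccng1, Zmat3, Trp53inp1 and Map2k1 (adjusted p 0.0653 to 0.290), and it gave Mthfsl a call (-0.74, adjusted p = 0.0217). Of 30 further genes given with a call or an adjusted p, 16 kept their call in all alternatives in which they were tested, and none reversed. Depth is unknown, which limits what can be said of genes at a few FPKM or less.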
